A study of Mus musculus with 94 samples.

Results

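The mitochondrial genome of the mouse carries 37 genes, and all 37 were followed here in single basophils. The members are defined by name, as every gene whose symbol starts with mt-, and make up 37 of the 46078 gene identifiers in the count table. They comprise 13 protein-coding genes, 2 ribosomal RNA (rRNA) genes and 22 transfer RNA (tRNA) genes. The naming rule uses no measured value.

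The libraries come from bone marrow of 3 female C57BL/6 mice. Each of 94 libraries holds the RNA of 1 basophil, a granulocyte that binds IgE through the receptor FcεRI. All cells were sorted as live, negative for lineage markers and Sca1, and positive for FcεRI. The gates differ in CD34, a sialomucin found on the surface of early blood cells, with 47 CD34-positive and 47 CD34-negative cells. No genotype, treatment or age is given in the labels, and none separates the gates. The labels do not assign cells to mice, so each gate counts as 1 sample. Differences between the gates therefore have no replicate check, and neither a test nor a p-value is given.

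The mitochondrial genome is a circular DNA that is transcribed on both strands into long precursor RNAs, which are cut at the tRNAs into single rRNAs, mRNAs and tRNAs. Its mRNAs encode subunits of the respiratory chain and of ATP synthase, and its rRNAs form the core of the mitochondrial ribosome. All proteins that copy, transcribe, process and translate this genome are encoded in the nucleus and imported. Most mitochondrial mRNAs in mammals carry short poly(A) tails, and the rRNAs carry only short A extensions. The libraries were primed with oligo-dT, so levels of different RNA classes also depend on how well each is primed, and no level below is a copy number.

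Where a stretch of mitochondrial DNA also exists in the nuclear genome, a short read cannot be placed uniquely, and the count table holds no reads of the category for several alignments. Every run of 50 bases, the read length, was therefore looked up in all other annotated mouse transcripts (GENCODE M21, build GRCm38). Sequences are shown for the members in which this matters most and for the overlapping gene pairs, written 5′ to 3′ on the named strand. In mt-Co2 (cytochrome c oxidase subunit), 100% of the runs recur elsewhere. The first 60 bases of its coding sequence (chrM:7013-7072, plus strand) and the first 60 bases of the nuclear pseudogene model Gm28661 (chr1:24615506-24615565, minus strand) are the same, and capitals mark the shared bases.
mt-Co2: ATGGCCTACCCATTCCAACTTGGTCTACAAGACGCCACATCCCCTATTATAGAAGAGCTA
Gm28661: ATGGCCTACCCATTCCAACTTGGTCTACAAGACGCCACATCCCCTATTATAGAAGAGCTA

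Gm28661 is 1 of 7 pseudogene models that lie between chr1:24611535-24616197 on the minus strand and copy a stretch of the mitochondrial genome. The models Gm29216, Gm28661, Gm10925, Gm28437, Gm28438, Gm10222 and Gm28439 match mt-Co1, mt-Co2, mt-Atp6, mt-Co3, mt-Nd3, mt-Nd4l and mt-Nd4 in turn. The copy ends inside mt-Nd4 and starts inside mt-Co1, which leaves parts of these genes outside it. In mt-Nd4 the shared run covers bases 1 to 876 of the gene. Its end is shown for chrM:11003-11082, where the run shared with Gm28439 is in capitals.
mt-Nd4: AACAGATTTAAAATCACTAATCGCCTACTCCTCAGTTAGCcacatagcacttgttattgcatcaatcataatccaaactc

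In mt-Co1 the run shared with Gm29216 covers bases 1067 to 1545 of the gene. Its start is shown for chrM:6354-6433, with the bases of this run in capitals.
mt-Co1: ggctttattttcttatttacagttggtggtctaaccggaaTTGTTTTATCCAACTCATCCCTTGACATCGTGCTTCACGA

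Read levels per kb of gene, summed over both gates, were under 1000 in the 5 mRNA genes whose sequence is almost wholly repeated and in mt-Atp8, and above that in the other mRNA and rRNA genes. The rRNA gene mt-Rnr2 had 517315 reads per kb with 1.04% of its runs shared. The members mt-Rnr1, mt-Cytb and mt-Nd1, with no shared run, had 97520, 84149 and 48833 reads per kb. In the 5 genes with at least 98.0% of runs shared, mt-Co3, mt-Atp6, mt-Co2, mt-Nd3 and mt-Nd4l, the levels were 846, 608, 287, 132 and 64.0 reads per kb. The other mRNA genes were mt-Co1 (51.1% shared) at 49368, mt-Nd5 (7.61%) at 17326, mt-Nd4 (62.2%) at 15820, mt-Nd2 (8.19%) at 15412 and mt-Nd6, with no shared run, at 8778 reads per kb.

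The 7 nuclear models held between 12 and 688 reads each. Both gates together had 663 reads in mt-Co3 and 688 in Gm28437, 414 in mt-Atp6 and 387 in Gm10925, and 196 in mt-Co2 and 139 in Gm28661. For mt-Nd3 and Gm28438 they were 46 and 12, and for mt-Nd4l and Gm10222 19 and 22. The partly shared genes mt-Nd4 and mt-Co1 held 21800 and 76274 reads, against 127 in Gm28439 and 315 in Gm29216. Outside the stretch on chromosome 1, mt-Co1 also shares runs with Gm13340 (406 reads) and Gm11512 (34 reads), and mt-Co2 with Gm13341 (46 reads). The levels of the 5 members are therefore not comparable with those of the others, and reads of a member and of its nuclear copy cannot be told apart. Counted per 50-base run that occurs nowhere else in the annotated transcripts, mt-Co1 had 104 reads, mt-Rnr1 103, mt-Cytb 87.9, mt-Nd1 51.5 and mt-Nd4 43.4. The same count was 539 for mt-Rnr2, 19.3 for mt-Nd5, 17.6 for mt-Nd2 and 9.69 for mt-Nd6, and has no use for the 5 genes with at most 6 such runs. The level of mt-Atp8 was 225 reads per kb, with no run shared with an annotated transcript. In the copied stretch on chromosome 1, no gene is annotated between Gm10925 and Gm28661, which match its neighbours mt-Atp6 and mt-Co2, and sequence outside annotated transcripts was not searched. This gene is 204 bases long and overlaps mt-Atp6.

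**Figure D1:**
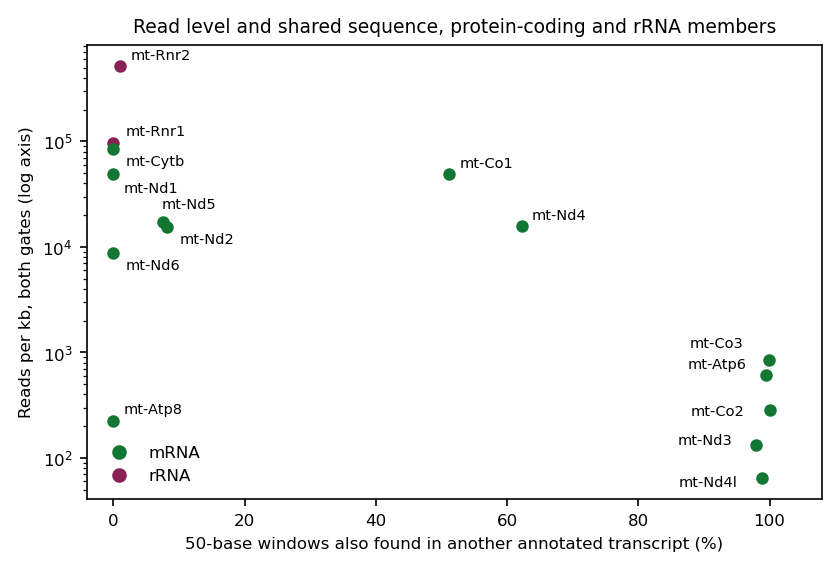
Reads per kb of gene summed over both gates (log axis) against the percentage of 50-base windows that also occur in another annotated transcript, for the 13 protein-coding and 2 rRNA genes. The 5 genes at the right, with 98.0% or more of windows shared, lie at or below 846 reads per kb, and mt-Atp8 is the only gene without shared windows that lies below 1000.

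Neighbouring genes of the mitochondrial genome also overlap in places, and a read that overlaps 2 genes can be set aside as ambiguous. The longest overlaps between protein-coding genes are shown, and a further one, of mt-Nd4l with mt-Nd4, spans 7 bases. The end of mt-Atp8 and the start of mt-Atp6 (both ATP synthase subunits) share 43 bases on the plus strand, in capitals within chrM:7907-7989.
mt-Atp8 and mt-Atp6: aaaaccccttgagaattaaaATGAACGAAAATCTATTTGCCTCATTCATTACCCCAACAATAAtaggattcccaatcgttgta

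The end of mt-Nd5, on the plus strand, and the end of mt-Nd6, on the minus strand, share 14 bases, in capitals within chrM:13522-13595 and written as the plus strand.
mt-Nd5 and mt-Nd6: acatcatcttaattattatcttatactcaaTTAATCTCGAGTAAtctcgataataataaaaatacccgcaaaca

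Of the 37 genes, 28 lie on the plus and 9 on the minus strand, and mt-Nd6 is the minus strand's only mRNA. The library protocol is not described as keeping the strand, so reads of mt-Nd6 and reads of RNA from the opposite strand cannot be told apart.

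One cell of each gate, CD34-negative cell 20 and CD34-positive cell 3, had fewer than 50000 gene reads and was left out, which leaves 46 cells per gate. Gene reads per kept cell ran from 262944 to 938322 with a median of 737059 in the CD34-negative gate, and from 374011 to 1154740 with a median of 633178 in the CD34-positive gate. The median number of genes with a read was 5304 and 7512, respectively. All 12 basophil markers had reads in both gates, and summed to 48699 CPM (counts scaled to 1000000 gene reads) in CD34-negative and to 99884 CPM in CD34-positive cells, with 5 of the 12 higher and 7 lower in the latter and a median log2 ratio of −0.30. Of the markers of other cell types, the 7 matched of 9 mast cell symbols summed to 0.0299 and 7.33 CPM, and neutrophil genes to 19.7 and 71.2 CPM with Ltf, Camp and Ly6g at 0. Erythroid genes summed to 7.80 and 27.005 CPM with Hba-a1, Hba-a2 and Car1 at 0, B cell genes to 64.0 and 49.5 CPM, and eosinophil genes to 174 and 114 CPM. The monocyte and dendritic list summed to 513 and 51.3 CPM, of which Ccr2 made up 493 and 40.5. Megakaryocyte genes came to 1449 and 947 CPM, mostly Itga2b at 1444 and 930 CPM, with Pf4 and Ppbp at 0. The part of these differences in the mitochondrial values was not tested.

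Mitochondrial reads were a small share of all gene reads in both gates and a larger one in CD34-positive cells. Summed over cells, the 37 genes took 1.68% of gene reads in the CD34-negative gate (563021 reads, 95% Clopper-Pearson interval 1.68 to 1.69) and 2.14% in the CD34-positive gate (643596 reads, 2.14 to 2.15). These intervals, and all others on reads, cover the counting error of reads only, not the spread between cells. The reads carry no molecular identifiers, so the intervals do not measure the error in counts of molecules. Per cell, the CD34-negative share had a lowest value of 0.669% (cell 3), a median of 1.63% and a highest value of 4.95% (cell 45). The CD34-positive share had a lowest value of 1.18% (cell 33), a median of 2.23% and a highest value of 5.74% (cell 1). The gates overlapped over most of their range: the CD34-positive cell was the higher in 71.5% of all pairs of 1 cell from each gate.

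The difference lay mainly in the protein-coding genes. The 13 mRNAs together took 0.298% of gene reads in the CD34-negative gate (0.296 to 0.300) and 0.649% in the CD34-positive gate (0.646 to 0.652). Per cell, the lowest, median and highest mRNA shares were 0.0396%, 0.263% and 0.765% in CD34-negative cells. In CD34-positive cells they were 0.237%, 0.645% and 1.78%, and the ratio of the medians was 2.45. The CD34-positive cell was the higher in 91.9% of pairs. The gates still overlapped: 18 CD34-negative cells lay below the lowest CD34-positive cell, 10 CD34-positive cells lay above the highest CD34-negative cell, and 3 CD34-negative cells lay above the CD34-positive median.

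The rRNAs differed far less. The 2 rRNA genes took 1.38% of the gene reads of CD34-negative cells and 1.49% of those of CD34-positive cells. Per cell, the lowest, median and highest shares were 0.629%, 1.26% and 4.19% in CD34-negative cells, and 0.744%, 1.49% and 3.96% in CD34-positive cells. The ratio of the medians was 1.18 and the CD34-positive cell was the higher in 58.2% of pairs. With scran size factors in place of total gene reads, the log2 ratio of the rRNA medians was 0.03 in place of 0.24.

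Within mitochondrial reads, the balance of the classes therefore differed, and this balance depends on no scaling to other genes. The mRNAs made up 17.7% of the mitochondrial reads of CD34-negative cells and 30.3% of those of CD34-positive cells, and the rRNAs 82.3% and 69.7%. Per cell, the number of rRNA reads per mRNA read had a lowest value of 2.03, a median of 4.66 and a highest value of 29.5 in CD34-negative cells. In CD34-positive cells the values were 1.40, 2.32 and 4.83. The CD34-positive cell had the higher ratio in 8.74% of pairs. Of the CD34-negative cells, 22 lay above every CD34-positive cell, while 13 CD34-positive cells lay below every CD34-negative cell.

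**Figure D2:**
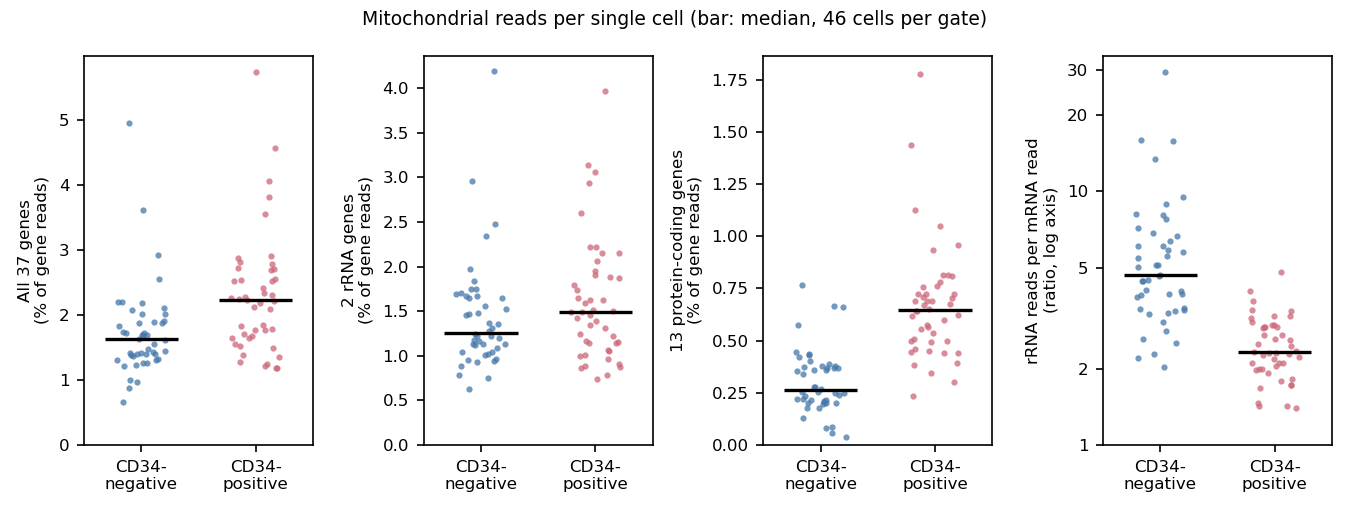
Share of gene reads (%) in all 37 mitochondrial genes, the 2 rRNA genes and the 13 protein-coding genes, and rRNA reads per mRNA read (log axis), for each of 46 CD34-negative and 46 CD34-positive cells, with bars at the medians. The mRNA medians are 0.263% and 0.645%, the rRNA medians 1.26% and 1.49%, and the medians of the ratio 4.66 and 2.32.

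Each reaction had received ERCC RNA, a synthetic spike-in, which gives a scale that does not depend on the other genes of the cell. Mitochondrial reads per ERCC read had a lowest value of 0.0341, a median of 0.131 and a highest value of 0.312 in CD34-negative cells, against 0.118, 0.277 and 0.755 in CD34-positive cells. The ratio of the medians was 2.12, close to the ratio of 2.06 for the reads of all other genes (6.77 and 13.98 per ERCC read). By reads summed over cells the mitochondrial values were 0.106 and 0.263 per ERCC read, a log2 ratio of 1.31 in place of 1.08 by the medians. Mitochondrial mRNA reads per ERCC read had medians of 0.0183 and 0.0859, a ratio of 4.69, and 36 CD34-negative cells lay below the lowest CD34-positive cell. For rRNA reads the medians were 0.106 and 0.185, a ratio of 1.74. ERCC reads per cell themselves had medians of 103106 and 47985, so the scale assumes that each well received the same amount of spike-in, which was not tested.

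**Figure D3:**
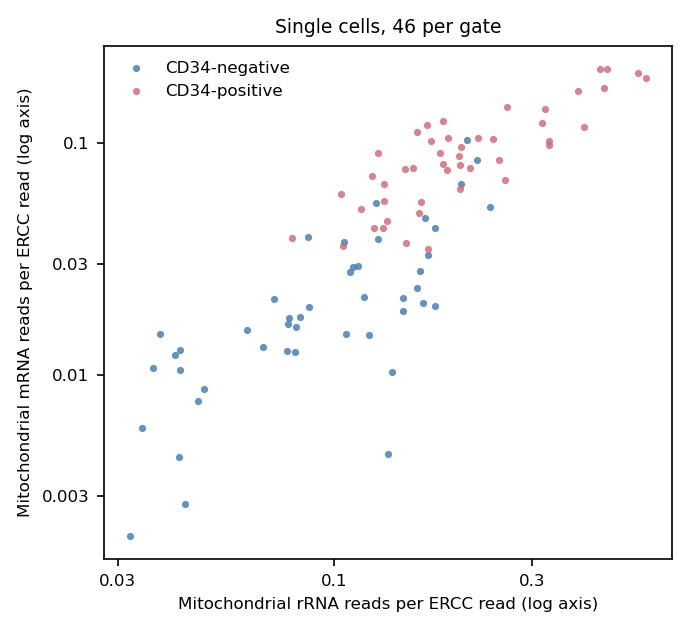
Mitochondrial mRNA reads per ERCC read against mitochondrial rRNA reads per ERCC read, both on log axes, 1 point per cell, 46 cells per gate. CD34-positive cells lie further along both axes, and on the mRNA axis 36 CD34-negative cells lie below the lowest CD34-positive cell, at 0.0348.

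Of the 37 genes, 24 had reads in at least 10 kept cells: all 13 mRNAs, both rRNAs and 9 tRNAs. Those passing the limit of 10 cells in the CD34-positive gate only were mt-Nd3, mt-Te, mt-Tl1, mt-Ta and mt-Tc, so that their inclusion depends on that gate. For each gene, the reads of all kept cells in a gate were added, scaled to CPM, and compared as the log2 ratio of CPM plus 1, CD34-positive over CD34-negative. All 24 had a ratio above 0 on this scale and per ERCC read, whereas 22 did with edgeR's TMM factors, with which mt-Rnr2 and mt-Tq were at −0.16 and −0.02. Of all 12460 genes with reads in at least 10 cells, 58.9% had a ratio above 0, or 89.4% per ERCC read. The median ratio was 0.70 over the 24 members and 0.19 over all 12460 genes. At least 2-fold higher in the CD34-positive gate were 5 members, mt-Nd1, mt-Nd5, mt-Nd6, mt-Cytb and mt-Te, against 21.7% of all genes. None was 2-fold lower, against 10.1% of all genes. The share of the 24 members past 2-fold is thus close to that of all genes on this scale. Many of the 24 had few reads, and the pseudocount holds their ratios near 0. Among genes at 10 CPM or more in a gate, 4 of 10 members were at least 2-fold higher, against 23.0% of 9621 genes. Of these members, mt-Co3 reached 10 CPM in the CD34-positive gate only. The count depended on the scale, with 24 members past 2-fold per ERCC read (57.6% of all genes) and 3 with TMM factors (17.7% of all genes). With a pseudocount of 0.1 CPM it was 13 (25.01% of all genes). That count includes mt-Nd3 and mt-Te, which had few reads and passed the limit of 10 cells in the CD34-positive gate only. It is therefore not read against the share of all genes.

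**Figure D4:**
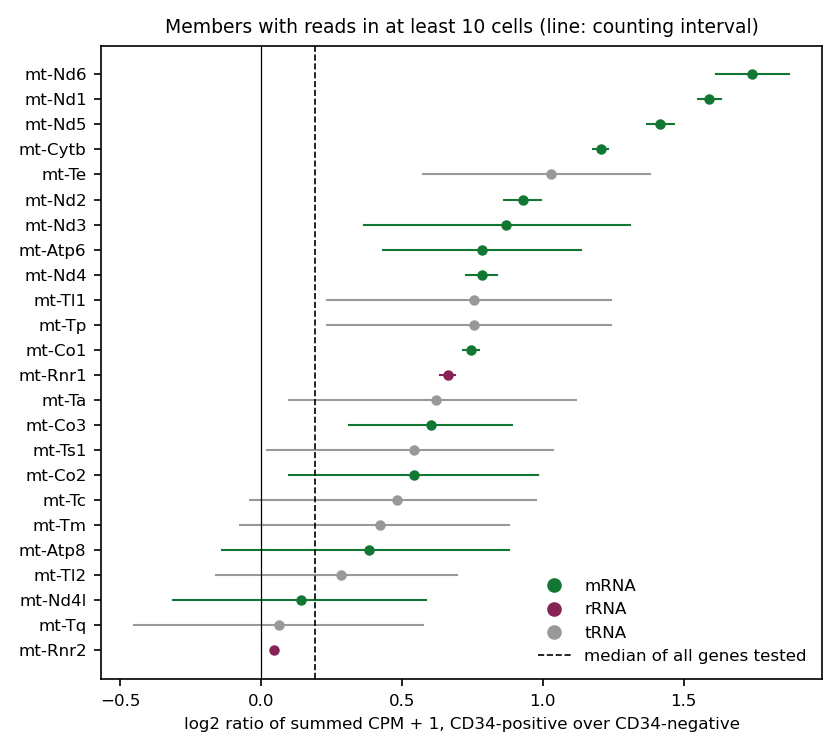
Log2 ratio of summed CPM plus 1, CD34-positive over CD34-negative, for the 24 genes with reads in at least 10 cells, coloured by class, with lines for the interval from the exact Poisson bounds of both sums. The ratios run from 0.05 for mt-Rnr2 to 1.74 for mt-Nd6, and the dashed line marks the median of all genes, 0.19.

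The rRNA of the large mitochondrial ribosomal subunit, mt-Rnr2 (ENSMUSG00000064339, chrM:1094-2675), was the most abundant member. Its lowest, median and highest levels per cell were 5828, 11596 and 39105 CPM in the CD34-negative gate and 6756, 12889 and 31823 CPM in the CD34-positive gate. The gates overlapped almost fully, and the log2 ratio of sums was 0.05. The rRNA of the small subunit, mt-Rnr1 (ENSMUSG00000064337, chrM:70-1024), had lowest, median and highest levels of 203, 1082 and 3009 CPM in CD34-negative cells. In CD34-positive cells they were 685, 1644 and 7808 CPM. Its log2 ratio was 0.66 (0.64 to 0.69), with 34 CD34-positive cells above the CD34-negative median. The 2 rRNAs of 1 ribosome thus had unequal ratios, although their levels per cell were correlated, with Spearman's rho of 0.805 over 46 CD34-negative cells and 0.896 over 46 CD34-positive cells.

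Complex I, the NADH dehydrogenase through which electrons enter the chain, has 7 mitochondrial subunits. Their summed level was 1120 CPM in the CD34-negative gate and 2773 CPM in the CD34-positive gate, a log2 ratio of 1.31 (1.28 to 1.33). Per cell the medians were 1077 and 2608 CPM, and 19 CD34-negative cells lay below the lowest CD34-positive cell.

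The subunits of complex I differed among themselves. For mt-Nd1 (ENSMUSG00000064341, chrM:2751-3707), the gene directly downstream of the rRNAs and 1 tRNA, the lowest, median and highest levels were 2.19, 292 and 1333 CPM in CD34-negative cells. In CD34-positive cells they were 114, 1096 and 2907 CPM. Its log2 ratio was 1.59 (1.55 to 1.63), and 45 of 46 CD34-positive cells lay above the CD34-negative median. For mt-Nd5 (ENSMUSG00000064367, chrM:11742-13565) the levels were 0, 228 and 1067 CPM against 79.8, 648 and 3708 CPM, with a log2 ratio of 1.42. Of these 2 genes, mt-Nd5 had the smaller ratio.

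The gene mt-Nd2 (ENSMUSG00000064345, chrM:3914-4951) had lowest, median and highest levels of 0, 137 and 635 CPM in CD34-negative cells and 69.7, 321 and 1025 CPM in CD34-positive cells. Its log2 ratio was 0.93 (0.86 to 0.99). For mt-Nd4 (ENSMUSG00000064363, chrM:10167-11544) the levels were 12.04, 254 and 624 CPM against 81.9, 416 and 1854 CPM, with a log2 ratio of 0.78. These 2 genes overlapped more between the gates than mt-Nd1, with 9 and 7 CD34-negative cells above the CD34-positive median against 2.

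The minus-strand gene mt-Nd6 (ENSMUSG00000064368, chrM:13552-14070) had a log2 ratio of 1.74 (1.61 to 1.88). This was the largest of the mRNAs with a pseudocount of 1 CPM, but mt-Nd1 was above it with 10 CPM (1.57 against 1.52) and mt-Nd3 with 0.1 CPM (2.01 against 1.77). Its lowest, median and highest levels were 0, 14.98 and 169 CPM in CD34-negative cells and 9.64, 76.2 and 524 CPM in CD34-positive cells. No read was found in 12 CD34-negative cells, while every CD34-positive cell had reads. After drawing 200000 gene reads from each cell, 32 and 46 cells had a read. Its level was correlated with that of mt-Nd5, with a Spearman's rho of 0.892 over CD34-negative and 0.781 over CD34-positive cells, the highest of 36 pairs of abundant members in the first gate. The genes overlap at their ends, and the part of RNA from the opposite strand in these reads was not tested.

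The remaining complex I genes, mt-Nd3 and mt-Nd4l, lie in the copied stretch. Reads of mt-Nd3 numbered 8 in 5 CD34-negative cells and 38 in 20 CD34-positive cells, and its log2 ratio was 0.87 (0.37 to 1.31). At so few reads the value rests on the pseudocount, with 2.01 at 0.1 CPM and 0.14 at 10 CPM. The ratio of CPM with no pseudocount was 5.29, with a counting interval from 1.90 to 16.8. Reads of mt-Nd4l numbered 8 and 11, a log2 ratio of 0.14 (−0.31 to 0.59), a difference not detectable at this depth.

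Complex III passes electrons to cytochrome c, and its only mitochondrial subunit is cytochrome b, mt-Cytb (ENSMUSG00000064370, chrM:14145-15288). Its lowest, median and highest levels were 1.15, 885 and 3512 CPM in CD34-negative cells and 474, 2039 and 4457 CPM in CD34-positive cells. The log2 ratio of sums was 1.21 (1.18 to 1.23), or 1.00 with TMM factors, which is just under 2-fold. In the CD34-positive gate, 45 of 46 cells lay above the CD34-negative median, and 14 CD34-negative cells lay below the lowest CD34-positive cell. The spread among CD34-negative cells was the widest of the abundant members without a cell at 0, from 1 read in cell 23 to 2456 reads in cell 45.

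Complex IV, cytochrome c oxidase, transfers electrons to oxygen and has 3 mitochondrial subunits. Nearly all of its reads came from the catalytic subunit mt-Co1 (ENSMUSG00000064351, chrM:5328-6872). Its lowest, median and highest levels were 175, 901 and 2780 CPM in CD34-negative cells and 434, 1465 and 3962 CPM in CD34-positive cells. The log2 ratio was 0.75 (0.72 to 0.77), smaller than that of mt-Nd1, mt-Nd5, mt-Nd6 or mt-Cytb. No cell had fewer than 10 reads of mt-Co1, which was also so for mt-Nd4. In the CD34-negative gate, 2 cells had fewer than 10 reads of mt-Cytb, 3 of mt-Nd1 and 23 of mt-Nd6.

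The other complex IV subunits lie fully in the copied stretch. The sums of mt-Co2 were 79 and 117 reads, with a log2 ratio of 0.54 (0.10 to 0.98). Those of mt-Co3 were 274 and 389 reads, with a log2 ratio of 0.60 (0.31 to 0.89). Their nuclear copies Gm28661 and Gm28437 had log2 ratios of 0.46 and 0.63.

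Complex V, the ATP synthase, is represented by mt-Atp6 and mt-Atp8 with 171 reads over the CD34-negative cells and 289 over the CD34-positive cells. For mt-Atp6 the sums were 154 and 260 reads, a log2 ratio of 0.79 (0.43 to 1.14), against 0.70 for its copy Gm10925. For mt-Atp8 they were 17 and 29 reads, a log2 ratio of 0.38 (−0.14 to 0.88). The counts of mt-Atp8 allow no direction.

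As shares of mitochondrial mRNA reads, complex I took 37.6% (CD34-negative) and 42.7% (CD34-positive), and complex III 31.4% and 33.3%. Complex IV took 30.9% and 23.8%, and complex V 0.171% and 0.148%. The share of complex IV was thus the lower in the CD34-positive gate, with a higher level in CPM (921 and 1543 CPM). These shares are of reads, not of molecules, and depend on gene length and on the copied stretch.

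Reads of the 22 tRNA genes numbered 146 over the CD34-negative cells and 333 over the CD34-positive cells. Mature mitochondrial tRNAs are short, end in CCA and carry no poly(A) tail. Of the 22, 17 had at least 1 read, and mt-Tw, mt-Td, mt-Tk, mt-Th and mt-Ts2 had none, for which a limit of 3 reads per gate is used. The highest level was 1.73 CPM, for mt-Ta in the CD34-positive gate.

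The tRNA for glutamate, mt-Te (ENSMUSG00000064369, chrM:14071-14139), which borders mt-Nd6 on the minus strand, had 2 reads in 2 CD34-negative cells and 35 reads in 20 CD34-positive cells. Its log2 ratio was 1.03 (0.58 to 1.38), and after drawing to equal depth 1 and 9 cells had a read. It was past 2-fold by a small margin: the ratio was 0.88 without the cell holding most of its reads, 0.97 with TMM factors, 0.15 with a pseudocount of 10 CPM and 2.99 with 0.1 CPM. The leucine tRNA mt-Tl1, between mt-Rnr2 and mt-Nd1, had 18 and 48 reads, the alanine tRNA mt-Ta 26 and 52, and the proline tRNA mt-Tp 18 and 48. The glutamine tRNA mt-Tq had 21 reads in each gate. At these counts, reads of a tRNA and of uncut precursor or neighbouring RNA cannot be told apart.

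The CD34-negative cells lowest in mitochondrial mRNA were not low in all members alike. CD34-negative cell 3 had the lowest mRNA share, with 362 mRNA reads among 913592 gene reads. It had 333 reads of mt-Co1 but 2 each of mt-Nd1 and mt-Cytb, 9 of mt-Nd5 and none of mt-Nd2 or mt-Nd6. CD34-negative cell 23 had 239 reads of mt-Co1 and 206 of mt-Nd5, with 5 of mt-Nd1 and 1 of mt-Cytb. Neither cell stood out in unaligned reads, which were 21.1% and 20.9% against a median of 22.2% for the gate. Cells 3 and 23 had 5.10 and 4.66 gene reads per ERCC read, against a gate median of 6.87. They had 4788 and 4521 genes with a read, against a median of 5304. Their ambiguous reads were 4.70% and 4.76%, against a median of 6.64%. CD34-negative cell 43 had the highest ratio of rRNA to mRNA reads, with 12961 rRNA reads and 440 mRNA reads. In that cell 26.3% of reads were unaligned and 10.3% were ambiguous. Its level in 2 models of the nuclear ribosomal RNA locus was 107307 CPM, against a gate median of 68352 CPM. The part of these library measures in the values of these cells was not tested.

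The highest mitochondrial shares were those of CD34-negative cell 45 and CD34-positive cell 1. In all 9 abundant members, mt-Rnr1, mt-Rnr2, mt-Nd1, mt-Nd2, mt-Co1, mt-Nd4, mt-Nd5, mt-Nd6 and mt-Cytb, both cells were above their gate's median, cell 45 least so in mt-Co1 with 978 CPM against 901. CD34-positive cell 1 had 7808 CPM of mt-Rnr1, 31823 of mt-Rnr2, 3962 of mt-Co1 and 4457 of mt-Cytb, each the highest of its gate. Both cells also stood apart in library measures. Their unaligned reads were 32.8% and 32.9%, their ambiguous reads 13.5% and 22.3%, and their reads in the 2 models of the nuclear ribosomal RNA locus, CT010467.1 and Gm26917, 149361 and 177685 CPM, each the highest of its gate except for the unaligned reads of cell 1. The part of these measures in the mitochondrial share was not tested. Without both cells the log2 ratio of the median mRNA shares was 1.33 in place of 1.29, and that of the total shares stayed at 0.45.

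Over the 46 cells of a gate, the rRNA and mRNA shares were related differently to library measures. As a description, Spearman's rho of the rRNA share with the level of the 2 nuclear ribosomal RNA models was 0.807 in CD34-negative and 0.808 in CD34-positive cells, and with the number of gene reads −0.663 and −0.790. For the mRNA share the corresponding values were 0.336 and 0.567, and −0.238 and −0.339. The percentage of reads in no feature had a rho of −0.0568 and 0.359 with the rRNA share, and of −0.343 and 0.0487 with the mRNA share. For the number of genes with a read the values were 0.069 and −0.129 with the rRNA share, and 0.299 and 0.0593 with the mRNA share, always CD34-negative before CD34-positive. The mRNA share had a rho of 0.238 with the rRNA share in CD34-negative cells and 0.647 in CD34-positive cells. These measures share their denominator and their libraries.

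Among the 9 abundant members (both rRNAs, mt-Nd1, mt-Nd2, mt-Nd4, mt-Nd5, mt-Nd6, mt-Co1 and mt-Cytb), the 36 pairwise values of Spearman's rho in CPM had a median of 0.349 in CD34-negative cells (0.0797 to 0.892) and 0.513 in CD34-positive cells (0.253 to 0.896). The closest pairs were the rRNAs and mt-Nd5 with mt-Nd6, which are neighbours. Several other neighbours were no closer than the median in at least 1 gate: mt-Nd4 with mt-Nd5 had 0.202 and 0.594, mt-Rnr2 with mt-Nd1 0.193 and 0.449, mt-Nd2 with mt-Co1 0.436 and 0.286, and mt-Nd6 with mt-Cytb 0.290 and 0.543. The lowest value in each gate was that of mt-Rnr2 with mt-Cytb. The level of mt-Co1 had a rho of 0.127 with mt-Nd5 in CD34-negative and 0.541 in CD34-positive cells. All members of a cell share its library and depth.

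Cells carry numbers in their names, whose relation to the plate is not given in the labels. Cells numbered 7 to 42, which are 35 CD34-negative and 36 CD34-positive cells, had median mitochondrial shares of 1.48% and 2.15%. For cells 1 to 6 (6 and 5 cells) they were 1.99% and 3.56%. For cells 43 to 47 (5 in each gate) the direction was turned, with 2.56% and 1.65%. The rRNA share turned with it, with 2.35% and 1.14% in cells 43 to 47 against 1.22% and 1.44% in cells 7 to 42. The mRNA share was the higher in CD34-positive cells in all 3 ranges, with medians of 0.293% and 0.935%, 0.252% and 0.629%, and 0.438% and 0.649%. The ratio of rRNA to mRNA reads was the lower in CD34-positive cells in all 3, at 4.28 and 2.71, 5.02 and 2.31, and 4.42 and 2.46. Mitochondrial reads per ERCC read were the higher in CD34-positive cells in all 3, at 0.119 and 0.186, 0.122 and 0.280, and 0.139 and 0.287.

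The nuclear genes that serve the mitochondrial genome were followed in 14 lists on the same scale. Their medians are read beside that of all 12460 genes, 0.19, of which 58.9% were higher in the CD34-positive gate. Per ERCC read every list median below was shifted upward together with the median of all genes, which was then 1.16.

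Genes that maintain mitochondrial DNA had no common direction, with 7 of 11 higher and a median of 0.44. Mgme1, a mitochondrial exonuclease, was at 1.32 and 31.3 CPM, and Ssbp1, which binds single-stranded DNA, at 19.9 and 53.1 CPM. Tfam, which packages the genome and starts its transcription, was at 15.2 CPM in the CD34-negative and 46.1 CPM in the CD34-positive gate, a log2 ratio of 1.54. The polymerase gene Polg was at 104 and 141 CPM, whereas its accessory subunit Polg2 was at 24.3 and 4.995 CPM with reads in only 7 cells of each gate, and the nucleotide supply gene Tk2 at 101 and 41.7 CPM.

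Among 8 transcription genes, 4 were higher and 4 lower, with a median of −0.04. The RNA polymerase Polrmt was at 30.1 and 40.99 CPM, a log2 ratio of 0.43. Of its partners, Tfb2m, which opens the promoter, was at 8.88 and 5.59 CPM, and Tfb1m, an rRNA methyltransferase, at 0.239 CPM with reads in 1 cell and 11.3 CPM with reads in 16 cells. Mterf4, which takes part in ribosome assembly, was at 15.4 and 4.50 CPM. The direction of the list depended on the genes kept: when genes under 10 CPM in both gates were left out, its median was 0.43.

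RNA processing and stability genes were higher in 16 of 28 cases, with a median of 0.31. The mitochondrial RNase P subunit Prorp, listed as 1110008L16Rik, was at 3.47 and 22.3 CPM, and Slirp, which with Lrpprc stabilises mitochondrial mRNAs, at 2.81 and 15.8 CPM. Nsun4, an rRNA methyltransferase, was at 9.36 and 46.8 CPM. Elac2, which cuts the other end of the tRNAs, was at 35.7 and 19.9 CPM, and Angel2 at 112 and 41.1 CPM.

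Mitochondrial aminoacyl-tRNA synthesis genes were higher in 17 of 20 cases with a median of 0.91, and 10 were at least 2-fold higher, against 21.7% of all genes. By summed CPM of the list the log2 ratio was 0.24. Mars2 and Nars2, which charge the tRNAs for methionine and asparagine, were at 0.0598 and 1.14 CPM in CD34-negative cells and at 33.8 and 28.7 CPM in CD34-positive cells. Translation factors were higher in 7 of 12 cases, near the share of all genes, with a median of 0.68 and a log2 ratio of sums of 0.09. Among them was Tsfm, an elongation factor, at 2.33 and 23.0 CPM.

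Proteins of the mitochondrial ribosome were higher in 41 of 49 cases for the large subunit (median 0.50) and in 26 of 29 for the small subunit (median 0.77). At least 2-fold higher were 11 genes of each, against 21.7% of all genes, which for the large subunit is near the share of all genes. None was 2-fold lower, against 10.1% of all genes. Mrpl38 was at 5.50 and 22.7 CPM and Mrps27 at 2.63 and 22.6 CPM, while Mrpl33 was at 210 and 117 CPM. Among the regulators of biogenesis, 3 of 8 were higher with a median of −0.23. Pprc1, a coactivator, was at 4.66 and 33.9 CPM and Myc at 59.5 and 127 CPM, and Nrf1 and Esrra were at 105 and 46.9 CPM and at 34.2 and 14.3 CPM. Of 10 mitophagy genes 3 were higher, with a median of −0.36. Pink1, the kinase that marks damaged mitochondria, was at 202 and 75.3 CPM, and Optn, an autophagy receptor, at 45.8 and 113 CPM.

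**Figure D5:**
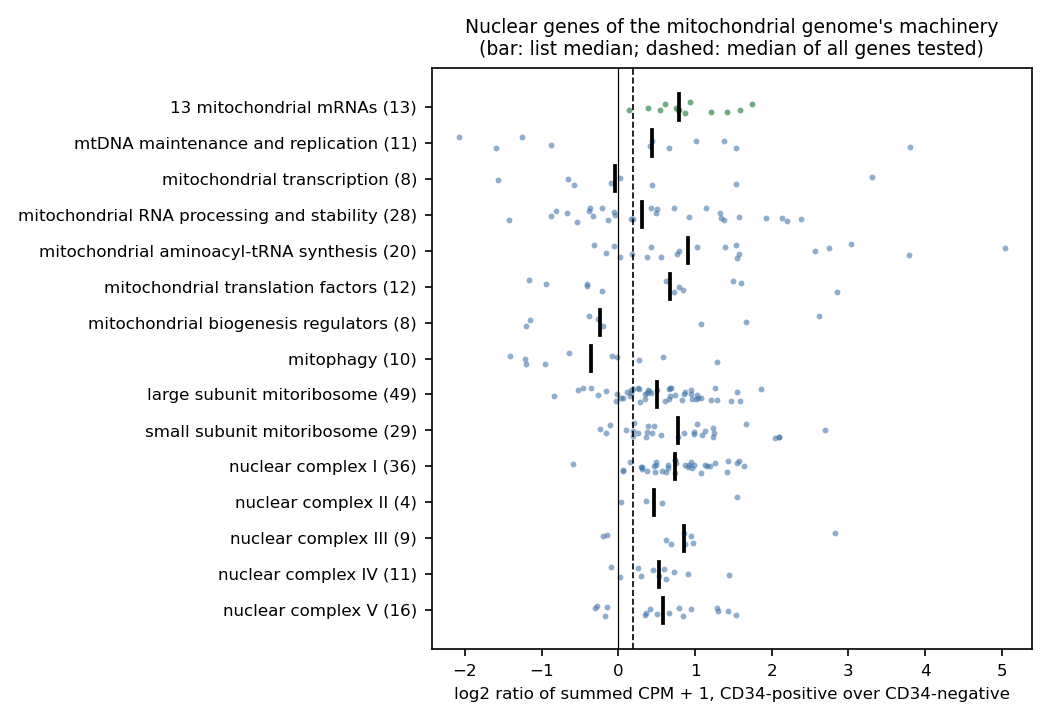
Log2 ratio of summed CPM plus 1, CD34-positive over CD34-negative, 1 point per gene, for the 13 mitochondrial mRNAs and 14 lists of nuclear genes, with bars at the list medians and a dashed line at the median of all genes, 0.19. The medians run from −0.36 for mitophagy to 0.91 for mitochondrial aminoacyl-tRNA synthesis, and that of the 13 mRNAs is 0.79.

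The nuclear subunits of the same complexes were set beside the mitochondrial ones. Nuclear complex I genes were higher in 35 of 36 cases with a median of 0.74, complex III in 7 of 9 with 0.85, complex IV in 10 of 11 with 0.53, and complex V in 12 of 16 with 0.58. All 4 genes of complex II, which has no mitochondrial subunit, were higher, with a median of 0.46. By summed CPM with no pseudocount, the log2 ratio was 0.62 for the nuclear and 1.31 for the mitochondrial subunits of complex I, 0.45 and 1.21 for complex III, and 0.36 and 0.75 for complex IV. By these sums the mitochondrial part thus had the larger ratio in these complexes. Single genes were less uniform, on the scale with a pseudocount. For complex IV, mt-Co1 was at 0.75, but mt-Co2 and mt-Co3 at 0.54 and 0.60, near the nuclear median of 0.53. For complex I, mt-Nd1, mt-Nd2, mt-Nd3, mt-Nd5 and mt-Nd6 lay above the nuclear median of 0.74. In the same complex mt-Nd4 was near it at 0.78, and mt-Nd4l below it at 0.14.

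Within cells, the number of mitochondrial reads per nuclear read of a complex had medians of 0.692 in CD34-negative and 1.19 in CD34-positive cells for complex I. For complex III the medians were 1.49 and 2.85, and for complex IV 0.829 and 1.21. The ranges overlapped: for complex I they ran from 0.0173 to 2.94 in CD34-negative cells and from 0.549 to 3.21 in CD34-positive cells. These ratios need no scaling to total reads or to ERCC reads. For complex V the medians were 0.00284 and 0.00425, where the mitochondrial genes lie in the copied or overlapping stretch.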

How the data were processed

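The authors deposited 1 table of read counts per gene, not normalized, with a column per cell. Reads were aligned to mm10 with GSNAP 2015-09-29 and counted with HTSeq 0.5.3p3, per the submitters' processing notes. The counting mode, annotation and strand setting are not given in the sources used here. Per the labels' protocols, cDNA was primed with oligo-dT, amplified by 19 cycles and sequenced from one end over 50 bp. Of all reads, 32.4% fell in genes, 7.68% were ambiguous, 33.0% in no feature and 22.9% not aligned. Reads that name no gene stayed out of library sizes. Overlapping and antisense genes are uncertain.

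Symbols were matched by identifier for 45143 of 46078 genes. A cell was kept when it had 50000 gene reads or more, 1000 detected genes or more, and an ERCC fraction below 50% of its gene and ERCC reads. The mitochondrial share was no filter, and a limit of 20% would have kept the same 92 cells. The cell is the unit of spread and the gate the sample, with no test. Because every well received 1 sorted cell, doublets were not called. Counts were summed per gate, with exact Poisson 95% intervals, and ratios used a pseudocount of 1 CPM. Ratio intervals set the bound of one gate against the opposite bound of the other. Genes outside the mitochondrial genome are named from the 14 pathway lists: the 3 highest and 3 lowest ratios among genes with reads in at least 10 cells and 10 CPM, and every gene of lists with up to 12 genes. The lists of 8 cell types are given as sums. The members and lists were chosen with earlier results of these data known. Ndufb1 and 2 of 9 mast cell symbols, Mcpt5 and Mcpt6, were not matched. Positions and sequences are from GENCODE M21 (GRCm38). Uniqueness was checked against annotated transcripts only.

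Alternatives were no cell filter, other denominators, edgeR TMM and scran size factors, ERCC scaling, other pseudocounts and gene filters, cells 7 to 42, and leaving out each cell. Leaving out the 2 cells with the highest mitochondrial share was added after the data were seen. Scripts were tested on simulated data. The work ran in R 4.3.3, with scran 1.30.0 and edgeR 4.0.16, and in Python 3.11.15, with matplotlib 3.10.9, pandas 2.3.3, scipy 1.17.1 and numpy 2.4.6.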

Additional observations from a re-analysis of the deposited data

Results flagged for a closer look

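The libraries with few reads, which the report's comparisons leave out and only the alternative with no cell filter includes, held mitochondrial reads. In CD34-negative cell 20 the 37 genes took 2.12% of gene reads (522 of 24565 reads, 95% Clopper-Pearson interval 1.95 to 2.31), a signal in data outside the main measurement. It had 64.2 rRNA reads per mRNA read and 0.341 mitochondrial reads per ERCC read, both above all 46 kept cells of its gate. The first ratio rests on 514 rRNA reads and only 8 mRNA reads, and the second on 1529 ERCC reads. Of the reads of this cell, 67.7% were not aligned. In CD34-positive cell 3 the share was 0.955% (301 of 31504 reads, 0.851 to 1.07), below all 46 kept cells of its gate. Its ratio of rRNA to mRNA reads was 2.91, within the range of the kept cells.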

How the results depend on the processing

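No paired analysis was possible because a cell belongs to 1 gate only, the labels do not say that a number links cells of both gates, and nothing was tested. The direction of the 5 values per cell held in every alternative listed, though the total and rRNA shares were turned within cells 43 to 47. The log2 ratio, of medians or in 1 alternative of sums, ranged from 0.21 to 0.63 around 0.45 for the mitochondrial share, from 1.09 to 1.51 around 1.29 for the mRNA share, from 0.03 to 0.31 around 0.24 for the rRNA share, from 1.00 to 1.31 around 1.08 per ERCC read, and from −1.12 to −0.99 around −1.01 for rRNA per mRNA read. The levels of complexes I, III, IV and V moved to 2.27, 2.17, 1.71 and 1.76 with ERCC scaling, and those of I, III and IV to 1.10, 1.00 and 0.54 with TMM factors. By the median of cells, I and IV had 1.28 and 0.71, by the mean of cells IV had 0.81, and with a pseudocount of 10 CPM V had 0.38. Leaving out each cell gave 1.24 to 1.36 for I, 1.17 to 1.29 for III and 0.70 to 0.79 for IV. Members past 2-fold numbered 24 with ERCC scaling, 3 with TMM factors and 13 with a pseudocount of 0.1 CPM, in place of 5, against 57.6%, 17.7% and 25.01% of all genes, in place of 21.7%. The median of all genes was 1.16 with ERCC scaling and 0.02 with TMM factors, in place of 0.19, and 89.4% and 51.0% of genes were higher, in place of 58.9%. With TMM factors the ratios of mt-Rnr2 and mt-Tq turned to −0.16 and −0.0212. With ERCC scaling the medians of transcription, biogenesis and mitophagy genes turned to 0.93, 0.73 and 0.61, and that of transcription genes also turned, to 0.43, when only genes at 10 CPM or more were kept. The other list medians that moved with ERCC scaling were RNA processing 1.28, aminoacyl-tRNA synthesis 1.88, translation factors 1.64, large and small ribosomal subunits 1.47 and 1.74, and nuclear complexes I, III, IV and V 1.71, 1.82, 1.5001 and 1.55. The scale itself shifts these values, and no further cause was tested. With 1 sample per gate, no alternative measures differences between mice.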
